A study of Mus musculus with 69 samples.

Results

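Water leaves the kidney tubule through aquaporins, and 9 genes of this system are described here: the aquaporins Aqp1, Aqp2, Aqp3, Aqp4, Aqp6, Aqp7 and Aqp11, the vasopressin receptor Avpr2 and the urea transporter Slc14a2. They were taken by gene symbol from a table of read counts for 24411 mouse genes. All 9 were found, and all 9 passed the filter on low counts (at least 2 reads over the 69 libraries), which left 21175 genes to test.

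The 69 libraries came from kidneys of mice that carried 1 allele of Uprt, an enzyme of Toxoplasma gondii that builds 4-thiouracil (4-TU) into new RNA, behind a stop cassette that Cre removes. The genotypes were Hoxb7Cre;UPRTf/+, which places Uprt in the collecting duct, and Atp6b1v1Cre;UPRTf/+ (spelled as in the labels, for the Atp6v1b1 promoter), which places it in intercalated cells, in cells with features of both collecting duct cell types, and in a few scattered interstitial cells. All mice, controls included, received 4-TU at 430 mg/kg 4 hours before the kidney was taken. Tagged RNA was biotinylated and captured, which gave the pulldown libraries, so that a value describes RNA made within hours in the Cre domain plus whatever untagged RNA the beads carried along.

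The groups were Control Hoxb7 Pulldown (10 libraries), Control Atp6b1v1 Pulldown (11) and Control Total (21), the last being whole kidney RNA that was not captured, from control mice of both genotypes. Ischemic injury (iAKI) was 10 minutes of clamping of both renal pedicles with 4-TU given 24 hours later, and gave 7 Hoxb7 and 6 Atp6b1v1 pulldowns. Volume depletion (vAKI) was 72 hours of restricted water and food, and gave 7 pulldowns with each driver. There was no total kidney RNA of injured mice among the libraries used here. Mice were 5.5 months old, except for 2 Hoxb7 controls, 3 Atp6b1v1 controls and 5 Control Total libraries, which were of 3 months. The strain is not in the labels, and the labels do not say that the libraries of a group come from separate animals, so p-values measure the spread between these libraries.

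The study presented males because its female libraries varied more. Injury was therefore compared within the 22 male pulldowns of 5.5 months. Of these, Hoxb7 pulldowns comprised Control 2, 3, 4 and 5, iAKI 4, 5, 6 and 7, and vAKI 4, 6 and 7, and Atp6b1v1 pulldowns comprised Control 6, 9, 10 and 11, iAKI 1, 4 and 5, and vAKI 1, 2, 6 and 7. The numbers are the labels' replicate numbers and were not used to pair libraries in the main fits.

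In the collecting duct, vasopressin binds Avpr2, a receptor on the basolateral membrane of principal cells that acts through cyclic AMP. Cyclic AMP brings the water channel Aqp2 to the apical membrane and, over hours to days, raises transcription of its gene, while Aqp3 and Aqp4 let the water out through the basolateral membrane. Slc14a2 encodes the UT-A urea transporters of the inner medullary collecting duct and the thin descending limb, which help to build the solute gradient that draws the water. The remaining members serve other places: Aqp1 is the constitutive water channel of the proximal tubule and thin descending limb, Aqp7 passes glycerol in the straight proximal tubule, Aqp11 lies in the endoplasmic reticulum of proximal tubule cells, and Aqp6 lies in vesicles of acid-secreting intercalated cells.

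On GRCm38, as annotated in GENCODE vM21, Aqp2 spans chr15:99579055-99584547 on the plus strand. Aqp5 begins 6234 bases beyond its end, and Aqp6, at chr15:99601400-99605477, begins 6570 bases beyond Aqp5, all 3 on the plus strand. Aqp3 (chr4:41092722-41098183) and Aqp7 (chr4:41033074-41048139) lie on the minus strand of chromosome 4 with 44582 bases between them. Aqp1 is at chr6:55336432-55348555, Aqp11 at chr7:97724006-97738289 on the minus strand, and Avpr2 at chrX:73892102-73895502 on the plus strand. Of the 2886 exonic bases of Avpr2, 2347 (81.3%) are also exonic in Arhgap4 (chrX:73891442-73921870), a gene of the opposite strand that encodes a GTPase-activating protein. The sources used here do not say that the library preparation kept strand, so reads of Avpr2 and Arhgap4 cannot be told apart in that stretch, and Arhgap4 is given beside Avpr2 below.

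Aqp2, Aqp3, Avpr2, Aqp4 and Aqp6 all fell in the male Hoxb7 pulldowns after both injuries. The sequences of the 250 bases before the start are shown for the first 3 of these. They were read from RefSeq's promoter table for GRCm38.p6, and are printed 5′ to 3′ on the strand of the gene. Capitals mark 3 short motifs on either strand, none of which overlap in these windows. The first, TGACG, is the core of a cyclic AMP response element. The second, GATAA, is the motif of the GATA family of transcription factors that includes Gata2 and Gata3. The third, AGGAAG, is a core motif of the ETS family that includes the epithelial factors Elf3 and Elf5. Over 32851 promoters of that length, 17.8% hold the first, 22.6% the second and 29.5% the third.
Aqp2, chr15:99578806-99579055, plus strand: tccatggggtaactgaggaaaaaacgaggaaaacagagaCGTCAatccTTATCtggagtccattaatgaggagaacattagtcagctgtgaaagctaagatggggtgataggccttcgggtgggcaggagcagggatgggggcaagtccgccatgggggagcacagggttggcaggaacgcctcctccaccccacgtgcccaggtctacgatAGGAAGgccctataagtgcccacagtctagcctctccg
Aqp3, chr4:41098184-41098433, minus strand: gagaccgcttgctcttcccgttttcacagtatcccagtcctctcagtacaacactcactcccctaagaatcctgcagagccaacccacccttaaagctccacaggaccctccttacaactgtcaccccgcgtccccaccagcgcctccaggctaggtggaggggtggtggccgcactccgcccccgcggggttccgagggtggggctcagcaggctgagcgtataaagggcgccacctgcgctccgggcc
Avpr2, chrX:73891852-73892101, plus strand: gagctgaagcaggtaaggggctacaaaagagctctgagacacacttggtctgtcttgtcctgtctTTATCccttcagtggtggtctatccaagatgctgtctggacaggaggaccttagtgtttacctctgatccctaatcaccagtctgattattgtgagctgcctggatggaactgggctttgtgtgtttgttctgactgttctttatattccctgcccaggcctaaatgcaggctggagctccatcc
The Aqp2 window held 1 copy of each motif, the Avpr2 window, which lies within Arhgap4, held 1 GATA motif, and the Aqp3 window held none of these letters. A match to so few letters is a description of the window and not a binding site.

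Libraries held from 12618062 to 30305464 counted reads (median 20868430), and the 22 male pulldowns from 14237156 to 29051810. Values below are CPM, the reads of a gene divided by library size after TMM scaling over all libraries and expressed on edgeR's usual scale. The Hoxb7 and Atp6b1v1 pools were checked against markers of other cells: 6 proximal tubule markers summed to between 7699 and 15468 CPM in Control Total, to between 1574 and 4184 in Hoxb7 controls and to between 1296 and 4135 in Atp6b1v1 controls, so proximal tubule RNA was lower in the pulldowns but was not at 0. Before the results, 6 female Hoxb7 libraries have to be set apart. A profile of 2027 genes higher and 1417 genes lower in male Hoxb7 vAKI than in male Hoxb7 Control, without the genes of the lists used here, lay between -0.31 and 0.36 (mean log2 difference, 0 for the mean male control) in the 4 male controls and between 3.01 and 3.22 in the 3 male vAKI libraries. The female libraries labelled Control 6, 9 and 10 lay at 1.796, 1.57 and 1.21, against 0.18 for Control 1. The female Control 7 and 8, of 3 months, lay at 0.86 and 0.41. Female libraries labelled vAKI 1, 2 and 3 lay at 0.40, 1.499 and 0.73, against 2.90 for vAKI 5. Controls outside the Hoxb7 pool reached 1.70 (Control Atp6b1v1 Pulldown 15) and 1.38 (Control Total 17). Whether the labels of the 6 libraries set apart are right or crossed cannot be told from the files. This doubt holds for every female Hoxb7 value and every sex difference in that pool given below. The libraries kept their labelled groups throughout, and some of the results that rest on them are also given without them or for males alone. Among the control comparisons, only those of Avpr2 and Slc14a2 with Control Total are given without Control 6, 9 and 10.

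**Figure D1:**
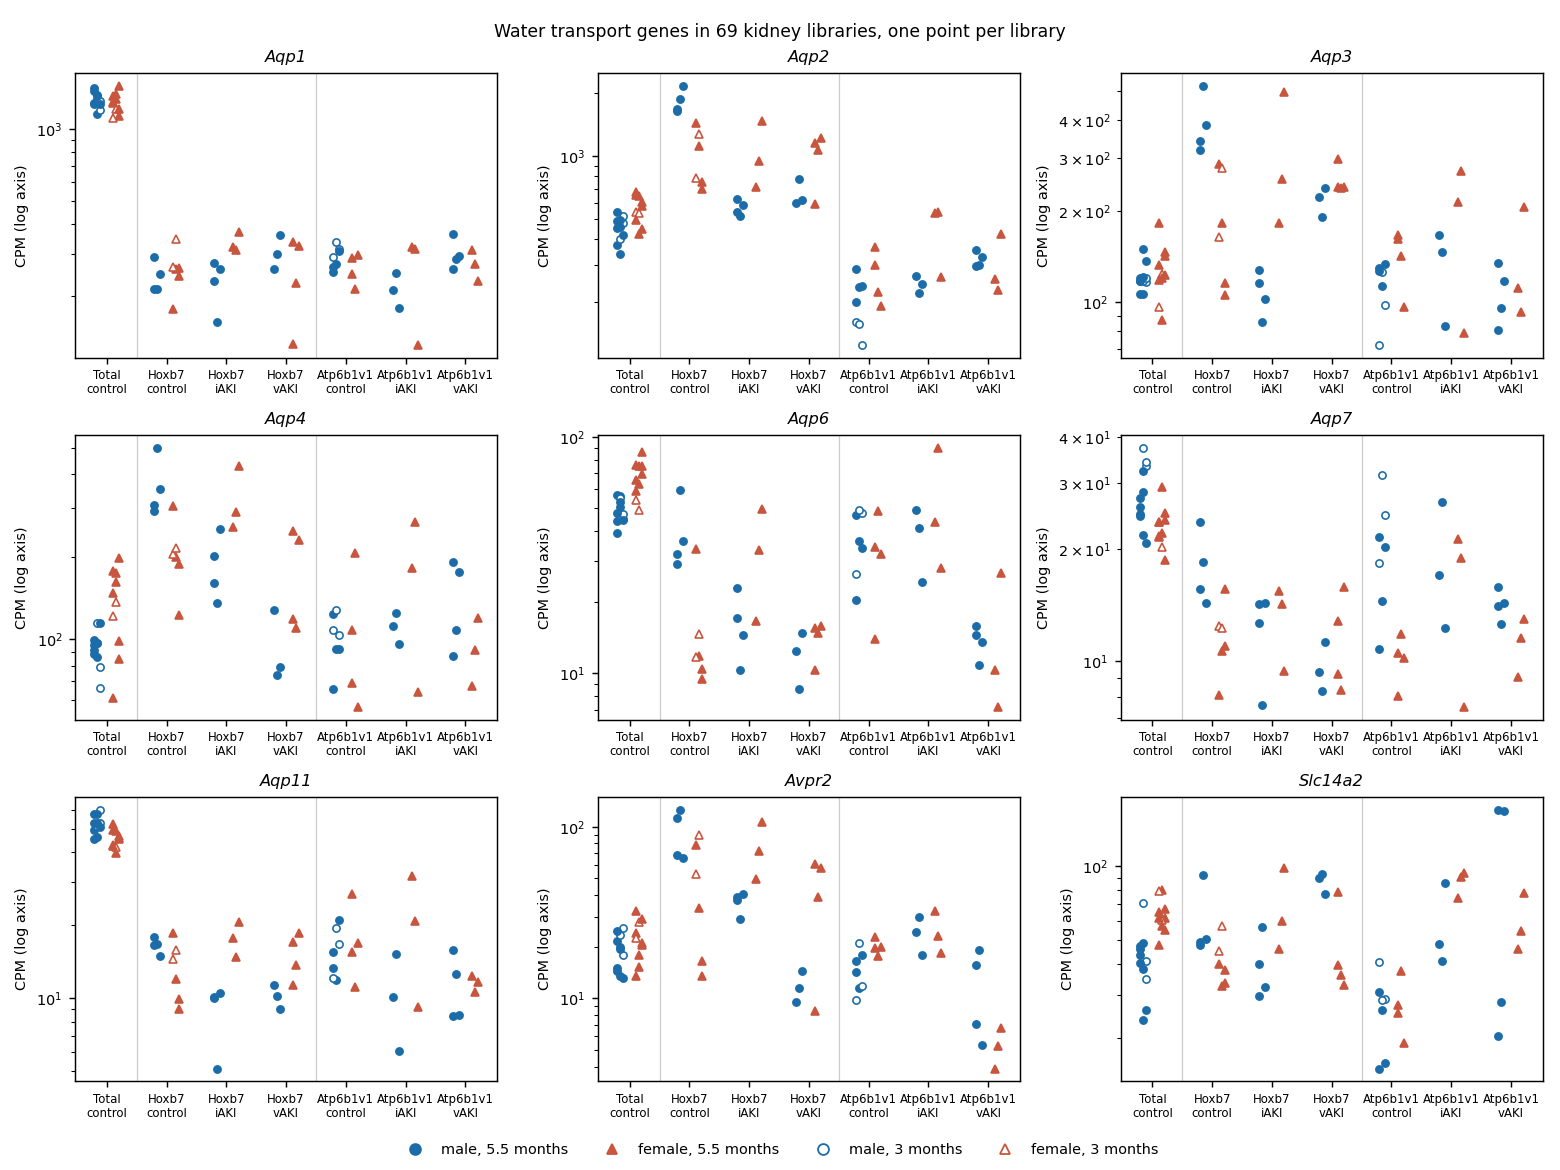
CPM on a log axis of each of the 9 genes, 1 panel per gene and 1 point per library, by group, with circles for males, triangles for females and open symbols for mice of 3 months. Aqp1 and Aqp11 are separated between Control Total and both pulldowns, Aqp2 is highest in Hoxb7 controls, and the 3 male vAKI Hoxb7 libraries hold Avpr2 at 9.52 to 14.5 CPM against 65.4 to 125 CPM in the 4 male controls.

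The first comparison asked where in the kidney the 9 genes are transcribed at rest. Per kilobase of exon, the highest level in Control Total was that of Aqp1 (mean 498 CPM per kb, range 424 to 576), followed by Aqp2 (355, 238 to 474) and Aqp3 (67.8, 47.8 to 99.8). Aqp6 (23.8, 16.1 to 35.7) and Aqp4 (18.2, 9.78 to 31.7) followed, and Slc14a2, Aqp7, Avpr2 and Aqp11 had means of 5.22 to 10.1 CPM per kb. The ranges of Aqp1 and Aqp2 overlapped, Aqp3 was clear of its neighbors on either side, and each gene below Aqp3 overlapped with the next in the order. In Hoxb7 controls the order was Aqp2 (948, 492 to 1528), Aqp3 (147, 57.8 to 284), Aqp1 (96.1, 67.5 to 132), Aqp4 (43.1, 19.7 to 79.9) and Avpr2 (22.7, 4.66 to 43.5), and of these only Aqp2 was clear of the next in the order. In Atp6b1v1 controls Aqp2 (159, 87.9 to 258) and Aqp1 (106.9, 81.4 to 128) overlapped, and Aqp3 followed at 67.9 (39.5 to 91.1). A level per kb depends on the annotated exon length, which for Aqp11 (9418 bases) is the longest of the 9.

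The receptor was the most concentrated of the 9 genes in the Hoxb7 pool. Avpr2 lay between 13.1 and 32.5 CPM in Control Total (median 20.3), between 13.5 and 125 CPM in Hoxb7 controls (median 66.9) and between 9.81 and 22.8 CPM in Atp6b1v1 controls (median 17.8). The lowest Hoxb7 values, 13.5 and 16.5 CPM, were those of the female libraries Control 6 and 9, and every other Hoxb7 control was above all Total libraries. Avpr2 was 3.27-fold higher in the Hoxb7 pool than in Control Total (log2 fold change 1.71, standard error 0.20, adjusted p = 4.59e-10, edgeR's quasi-likelihood test over all tested genes with Benjamini-Hochberg adjustment, n = 10 and 21). It did not pass the test in the Atp6b1v1 pool (log2 fold change -0.26, standard error 0.21, adjusted p = 0.292) and was 3.91-fold lower there than in the Hoxb7 pool (adjusted p = 6.39e-08). Without the 3 female Hoxb7 controls its log2 fold change against Total was 2.10, and it was 2.31 in males and 1.12 in females alone. Arhgap4, in contrast, stood at 0.16 (adjusted p = 0.316) in Hoxb7 and 0.17 (adjusted p = 0.286) in Atp6b1v1 pulldowns against Total.

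The channels of the principal cell, Aqp2, Aqp3 and Aqp4, were higher in the Hoxb7 pool than in Control Total, as the receptor was. Other principal cell markers were divided. Of 4 (Scnn1b, Scnn1g, Fxyd4 and Hsd11b2), 2 were higher and 2 lower than in Control Total in either pool. Between the pools, 1 of these 4 was lower in Atp6b1v1 than in Hoxb7 and 0 were higher. Of the 9 members, 4 were higher and 4 lower in the Hoxb7 pool than in Control Total, where 66.6% of all tested genes passed, 35.6% being higher and 31.1% lower. The median log2 fold change was -0.05 over the members, against 0.11 over all tested genes in both pulldowns. Aqp2 ranged from 338 to 672 CPM in Control Total (median 493), from 699 to 2168 CPM in Hoxb7 controls (median 1359) and from 125 to 366 CPM in Atp6b1v1 controls (median 223). No Hoxb7 control was as low as any Total library or any Atp6b1v1 library. Aqp3 and Aqp4 had medians of 120 and 98.4 CPM in Total, 282 and 254 CPM in Hoxb7 and 127 and 103.1 CPM in Atp6b1v1 controls, and their Hoxb7 ranges (105.7 to 519 and 123 to 498 CPM) overlapped with Total. The increases of the channels and the receptor in the Hoxb7 pool were all larger in males than in females fitted alone, at log2 fold changes of 2.05 and 0.90 for Aqp2, 1.72 and 0.61 for Aqp3 and 1.98 and 0.65 for Aqp4, a difference that includes the female controls described above and was not itself tested.

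The urea transporter did not join them. Slc14a2 ranged from 23.7 to 80.2 CPM in Control Total (median 48.8), from 32.6 to 92.4 CPM in Hoxb7 controls (median 46.6) and from 15.0 to 40.7 CPM in Atp6b1v1 controls (median 27.2). The Hoxb7 and Total ranges overlapped almost fully, with a log2 fold change of -0.05 (standard error 0.16, adjusted p = 0.802). It was 0.54 in males alone (adjusted p = 0.0508) and -0.58 in females alone (adjusted p = 0.000719). In the Atp6b1v1 pool Slc14a2 was lower than in Total (log2 fold change -0.88, standard error 0.17, adjusted p = 9.49e-06) and lower than in the Hoxb7 pool (-0.83, standard error 0.19, adjusted p = 0.0014).

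The aquaporins of other segments were lower in both pools. Aqp1 lay between 1115 and 1514 CPM in Control Total, between 177 and 346 CPM in Hoxb7 controls and between 214 and 336 CPM in Atp6b1v1 controls. The pulldowns were clear of Total, and the 2 pools overlapped. Aqp1 was 5.02-fold lower in Hoxb7 (log2 fold change -2.33, standard error 0.08, adjusted p = 2.35e-28), and its log2 fold change in Atp6b1v1 was -2.18 (standard error 0.08, adjusted p = 4.12e-28). Aqp11, at 39.5 to 59.8 CPM in Total, was at 9.00 to 18.5 CPM in Hoxb7 and at 11.1 to 26.9 CPM in Atp6b1v1 controls, with log2 fold changes of -1.70 and -1.54. Aqp7, the glycerol channel, fell less, with log2 fold changes of -0.78 and -0.71 and ranges that overlapped with Total (8.09 to 23.6 and 8.02 to 31.5 CPM against 18.7 to 37.3 CPM). The proximal tubule marker sums given above were lower in the same pools. These comparisons set captured RNA, made within hours in the Cre domain plus untagged RNA, against whole kidney RNA that was not captured. What the tagged domain, the untagged RNA and the age of the RNA each contribute was not tested.

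Aqp6, the channel of intercalated cells, was lower than in whole kidney in both pools. It ranged from 39.1 to 86.4 CPM in Control Total (median 55.2), from 9.44 to 59.3 CPM in Hoxb7 (median 21.9) and from 14.0 to 49.1 CPM in Atp6b1v1 controls (median 34.2). Its log2 fold change against Total was -1.20 (standard error 0.22, adjusted p = 4.78e-06) in Hoxb7 and -0.69 (standard error 0.21, adjusted p = 0.00322) in Atp6b1v1 pulldowns. In males alone the Hoxb7 value was -0.30 (adjusted p = 0.171), and in females alone it was -2.09. The 6 intercalated cell markers, with a summed level of 344 to 612 CPM in Total, 416 to 969 CPM in Hoxb7 and 551 to 1333 CPM in Atp6b1v1 controls, comprised 3 that were higher and 2 that were lower in Hoxb7 than in Total, and 4 and 1 in Atp6b1v1.

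Set against the Hoxb7 pool, the Atp6b1v1 pool held 5 members lower and none higher, where 9.93% of all tested genes passed, 4.2% being lower and 5.73% higher. Aqp2 differed most, at 5.92-fold lower (log2 fold change -2.57, standard error 0.18, adjusted p = 1.43e-14), followed by Avpr2 (-1.97), Aqp4 (-1.35), Aqp3 (-1.11) and Slc14a2 (-0.83). Against Total, 6 members were lower and none higher in the Atp6b1v1 pool (29.4% and 34.4% of all tested genes, 63.8% in all), among them Aqp2 (log2 fold change -1.10, standard error 0.15, adjusted p = 1.60e-08), whereas Aqp3 (0.04, adjusted p = 0.852) and Aqp4 (-0.06, adjusted p = 0.813) did not pass. In females alone Aqp2 was lower in the Atp6b1v1 pool (-1.91, adjusted p = 1.31e-05), whereas Avpr2 (-1.24, adjusted p = 0.0835), Aqp4 (-0.93), Aqp3 (-0.42) and Slc14a2 (-0.60) did not pass, and Aqp6 was higher (1.06, adjusted p = 0.0459).

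**Figure D2:**
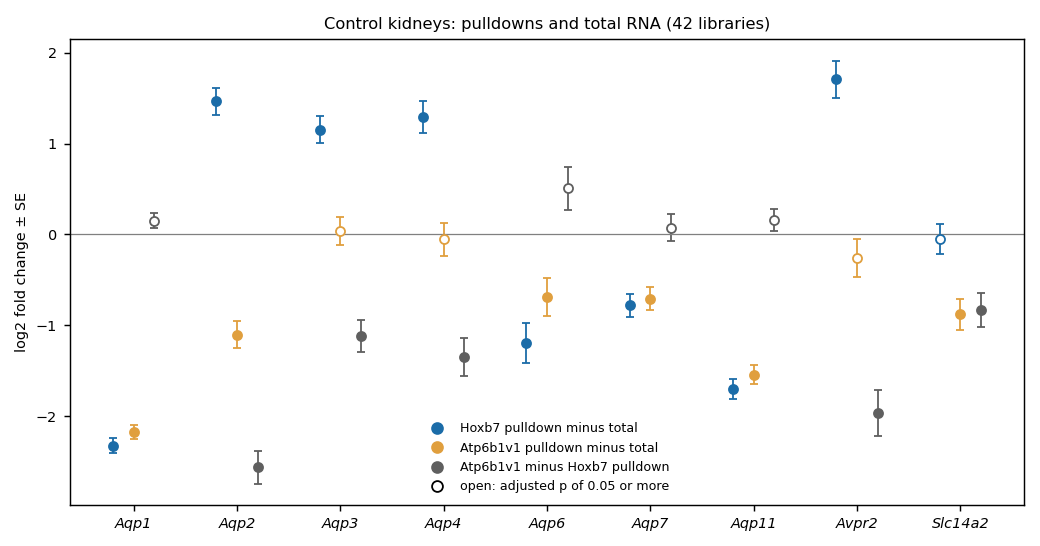
Log2 fold changes of the 9 genes in the control libraries, with standard errors as bars, for Hoxb7 pulldown against Control Total, Atp6b1v1 pulldown against Control Total and Atp6b1v1 against Hoxb7 pulldown. Open symbols have an adjusted p of 0.05 or more. Avpr2, Aqp2, Aqp4 and Aqp3 lie above 0 in the Hoxb7 pool against Total (1.71, 1.46, 1.29 and 1.15), and Aqp1, Aqp11 and Aqp7 lie below 0 in both pools against Total.

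A day after ischemia, the receptor and the 3 principal cell channels were all lower in the Hoxb7 pulldown of male mice. Of the 9 members, 6 fell and none rose, where 6.13% of all tested genes passed, 2.79% falling and 3.34% rising. The median log2 fold change of the members was -0.95, against 0.00 over all tested genes. Aqp2 was at 1657, 1874, 2168 and 1681 CPM in the controls and at 627, 519, 585 and 542 CPM after ischemia, so the groups were well apart. Aqp3 was at 319, 519, 385 and 340 CPM in controls and at 128, 85.9, 102.4 and 116 CPM after ischemia, again without overlap. The largest fall was that of Aqp3, at 3.58-fold (log2 fold change -1.84, standard error 0.20, adjusted p = 1.86e-05, n = 4 and 4), followed by Aqp2 at 3.22-fold (-1.69, standard error 0.13, adjusted p = 2.07e-07).

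Aqp4 was at 309, 498, 354 and 293 CPM in controls and at 200, 135, 252 and 160 CPM after ischemia, which left a narrow gap between the groups. The test gave a log2 fold change of -0.95 (standard error 0.25, adjusted p = 0.027), and it lost the call without Control 3 (-0.76, adjusted p = 0.113), iAKI 5 (-0.84, adjusted p = 0.093) or iAKI 7 (-0.88, adjusted p = 0.0829). Avpr2 was at 113, 125, 65.4 and 68.3 CPM in controls and at 38.7, 29.1, 40.5 and 37.6 CPM after ischemia, so the controls fell into a higher and a lower pair while the ischemic libraries lay close together. The receptor fell 2.52-fold (log2 fold change -1.33, standard error 0.29, adjusted p = 0.00875). The labels give each library a running number. The libraries were split here at the widest gaps in these numbers into 3 series, called A, B and C. The labels do not name such series, and whether they are batches of preparation is not known. The higher pair, Control 2 and 3, was of series A, as were all injured Hoxb7 libraries, and the lower pair was of series B. Within series A the log2 fold change of Avpr2 was -1.71 (adjusted p = 1.66e-05). Arhgap4 had a log2 fold change of -0.45 (adjusted p = 0.200).

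The members of other cells also moved. Aqp6 was at 31.9, 59.3, 36.4 and 29.1 CPM in controls and at 23, 10.3, 14.5 and 17.1 CPM after ischemia, a fall of 2.39-fold (log2 fold change -1.26, standard error 0.27, adjusted p = 0.00902). Aqp11, at 16.5, 16.8, 14.9 and 17.9 CPM in controls, was at 10.1, 5.12, 10.5 and 10.1 CPM after ischemia, with library iAKI 5 apart from the other three. Its log2 fold change of -0.87 (adjusted p = 0.0444) did not hold without any 1 of the 8 libraries, where adjusted p ran from 0.0564 to 0.141. Aqp1 (-0.05, adjusted p = 0.925), Aqp7 (-0.55, adjusted p = 0.189) and Slc14a2 (-0.58, adjusted p = 0.542) did not pass. Slc14a2 was at 49.1, 92.4, 50.8 and 47.8 CPM in controls and at 29.6, 56.7, 32.2 and 40.1 CPM after ischemia, and its standard error of 0.47 was the largest among the members. Within series A, where Control 3 is 1 of 2 controls, it was lower (-0.85, adjusted p = 0.0250). Of 4 other principal cell markers (Scnn1b, Scnn1g, Fxyd4 and Hsd11b2, none at 0), 3 were lower, and their summed level was 419 to 629 CPM in controls and 304 to 334 CPM after ischemia. Markers of other cells moved too, with all 5 adipocyte markers lower (median log2 fold change -1.33, sums of 44.0 to 90.8 CPM against 105.9 to 234 CPM) and 2 of 5 endothelial markers higher (146 to 181 CPM against 72.03 to 138.7 CPM), and neither pair of ranges overlapped. The part of these markers in the members' result was not tested. In bulk RNA, fewer cells of a type and less RNA per cell cannot be told apart.

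Volume depletion took the receptor down furthest. Avpr2 was at 9.52, 11.4 and 14.5 CPM in the 3 male vAKI Hoxb7 libraries, against 65.4 to 125 CPM in the 4 controls. Each depleted library was below every control and every ischemic library. The fall was 7.81-fold (log2 fold change -2.97, standard error 0.35, adjusted p = 1.44e-06, n = 3 and 4), and it was larger within series A (-3.32, adjusted p = 3.01e-09). Arhgap4 fell as well, from 5.63 to 7.51 CPM in controls to 2.47 to 3.11 CPM (log2 fold change -1.18, standard error 0.22, adjusted p = 0.000266), a smaller change than that of Avpr2, and its part in the reads of the shared exons was not tested.

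In the same libraries 6 of 9 members fell and none rose, where 35.5% of all tested genes passed, 17.6% falling and 17.9% rising. The median log2 fold change of the members was -0.90. Aqp2 was at 599, 779 and 618 CPM, well below its controls (1657 to 2168 CPM), a fall of 2.76-fold (log2 fold change -1.47, standard error 0.15, adjusted p = 2.59e-07). Aqp4 was at 127, 73.9 and 79.1 CPM against 293 to 498 CPM, a fall of 3.87-fold (-1.95, standard error 0.29, adjusted p = 1.73e-05). Its depleted range lay below that of the ischemic libraries too. Aqp3 was at 223, 191 and 238 CPM against 319 to 519 CPM, a fall of only 1.79-fold (-0.84, standard error 0.21, adjusted p = 0.00297).

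Of the other members, Aqp6 was at 12.4, 8.61 and 14.9 CPM (log2 fold change -1.71, standard error 0.31, adjusted p = 0.000166). Aqp7, the glycerol channel, was at 9.31, 8.29 and 11.2 CPM against 14.3 to 23.6 CPM (-0.90, standard error 0.26, adjusted p = 0.0101), a call that was lost without vAKI 6 (-0.80, adjusted p = 0.0543). Aqp11 (-0.69, adjusted p = 0.0555) and Aqp1 (0.35, adjusted p = 0.128) did not pass, except within series A (adjusted p of 0.0432 and 0.0453). Slc14a2 was at 89.7, 93.2 and 77.5 CPM, above 3 of the 4 controls, and the highest of these values was just above Control 3 (92.4 CPM). Its log2 fold change of 0.54 did not pass (standard error 0.50, adjusted p = 0.44). The 4 principal cell markers were all lower, with a summed level of 205 to 232 CPM. The summed level of 2 markers of the thick ascending limb was 762 to 850 CPM against 1329 to 2321 CPM in controls, and that of the intercalated cell markers was 411 to 669 CPM against 589 to 969 CPM. Of 5 endothelial markers 2 were higher (144 to 180.2 CPM in sum), and of 5 adipocyte markers 4 were lower (93.4 to 119.8 CPM in sum). What these shifts contribute to the members' values was not tested.

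The receptor and its channels were thus lower after both injuries, and the direct comparison showed by how much the injuries differed. In the Hoxb7 pool 1 member was higher and 2 were lower after volume depletion than after ischemia, where 33.3% of all tested genes passed, 16.4% being higher and 16.9% lower. Avpr2 was 3.10-fold lower after volume depletion (log2 fold change -1.63, standard error 0.33, adjusted p = 0.000536), and Aqp4 was lower (-1.01, standard error 0.28, adjusted p = 0.00682). Aqp3 was higher (1.00, standard error 0.20, adjusted p = 0.000579), so the basolateral channels Aqp3 and Aqp4 took opposite orders between the injuries. Aqp2 did not differ by the test (0.22, adjusted p = 0.253). Slc14a2 was at 77.5 to 93.2 CPM after volume depletion and at 29.6 to 56.7 CPM after ischemia, ranges that did not overlap, with a log2 difference of 1.12 (standard error 0.50, adjusted p = 0.0926) that passed with the series as a covariate (1.12, adjusted p = 0.0324). The comparisons with controls share the same 4 control libraries, and this one does not use them.

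**Figure D3:**
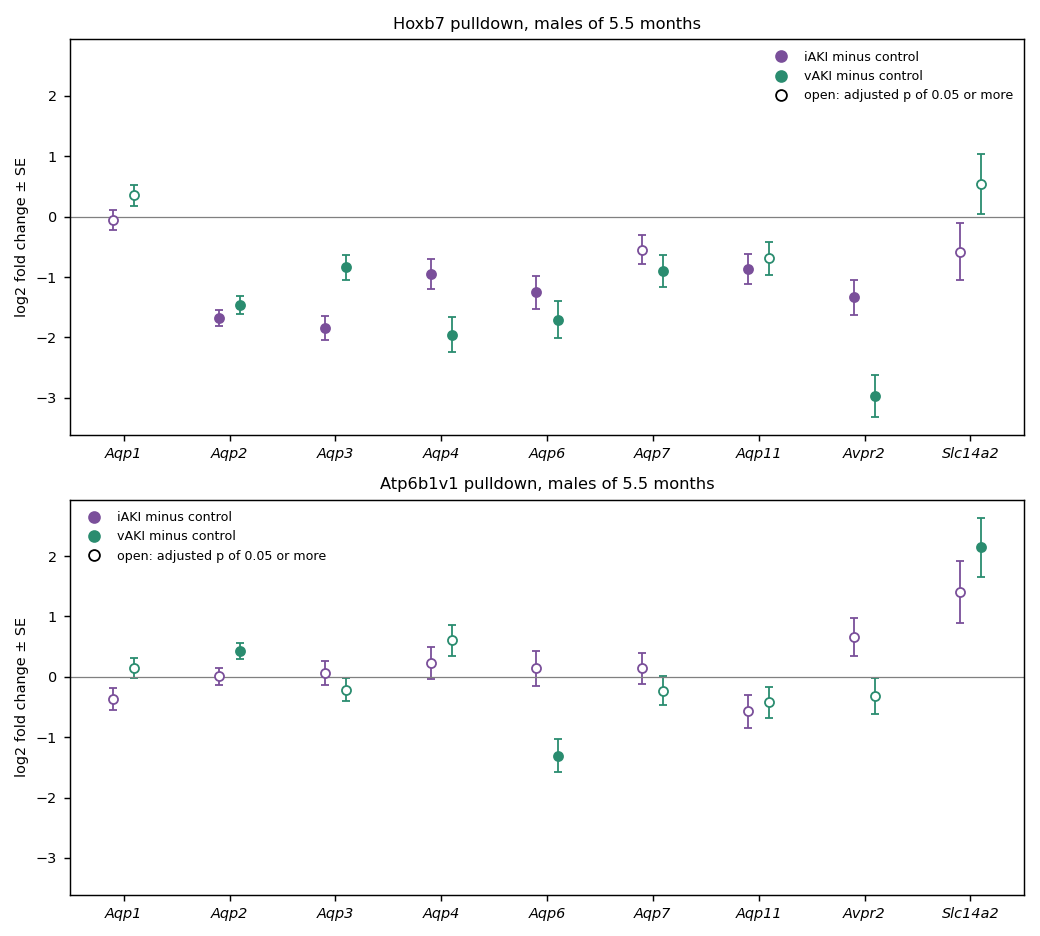
Log2 fold changes of the 9 genes after injury in the male pulldowns, with standard errors as bars, for ischemia and volume depletion in the Hoxb7 and Atp6b1v1 pools. Open symbols have an adjusted p of 0.05 or more. In the Hoxb7 pool Avpr2 lies at -1.33 after ischemia and at -2.97 after volume depletion, and Slc14a2 in the Atp6b1v1 pool lies at 1.40 and 2.15.

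In the Atp6b1v1 pool the leading gene was the urea transporter. Slc14a2 was at 15.7, 15.0, 30.8 and 25.9 CPM in the male controls 6, 9, 10 and 11, at 48.0, 41.3 and 85.2 CPM in iAKI 1, 4 and 5, and at 20.3, 27.9, 168 and 170 CPM in vAKI 1, 2, 6 and 7. Controls 6 and 9, iAKI 1 and 4 and vAKI 1 and 2 were of series A, the others of series B, and within each group the series B libraries were the higher. The 3 ischemic libraries were above all controls, whereas the depleted libraries of series A overlapped with them. After volume depletion Slc14a2 was 4.43-fold higher (log2 fold change 2.15, standard error 0.49, adjusted p = 0.00555), but the value was 0.65 within series A (adjusted p = 0.182) and 2.58 within series B (adjusted p = 3.72e-07). It did not pass in a fit of the control and depleted libraries alone (adjusted p = 0.0656). After ischemia it was 1.40 (standard error 0.51, adjusted p = 0.086), and it was nearly equal within series A (1.52, adjusted p = 0.00277) and within series B (1.59, adjusted p = 5.66e-05). With the series as a covariate the ischemic value was 1.57 (adjusted p = 0.0143). Series B alone holds 1 ischemic library, which is assumed to vary as the others do.

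Females showed the same direction in Slc14a2. Female Atp6b1v1 controls 7, 8, 12 and 13 were at 19.0, 25.4, 27.2 and 37.5 CPM, the ischemic libraries at 74.4, 90.3 and 93.6 CPM and the depleted libraries at 46.1, 54.7 and 77.8 CPM. No injured female library was as low as any of these controls. Fitted alone, females gave log2 fold changes of 1.64 after ischemia (adjusted p = 0.00745) and 1.13 after volume depletion (adjusted p = 0.012).

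Ischemia left no member of the Atp6b1v1 pool past the threshold in the fit of 22 males, where 8.51% of all tested genes passed, 3.77% rising and 4.74% falling. Over all tested genes 5066 had an unadjusted p under 0.05. Avpr2 was at 18.0, 14.3, 16.6 and 11.5 CPM in controls and at 24.2, 30.0 and 18.0 CPM after ischemia, with the lowest ischemic value just above the highest control (log2 fold change 0.66, standard error 0.31, adjusted p = 0.196). Within series A it passed (0.73, adjusted p = 0.0243). Aqp2 (0.01), Aqp3 (0.06), Aqp4 (0.23), Aqp6 (0.14) and Aqp7 (0.14) were near 0, and Aqp1 (-0.37, adjusted p = 0.21) and Aqp11 (-0.57, adjusted p = 0.207) were lower without passing. The 6 proximal tubule markers had a median log2 fold change of -1.21 in the same libraries, with 2 lower and none higher by the test, and their sums of 823 to 1151 CPM did not overlap with the 1770 to 3568 CPM of the controls. Their part in the values of Aqp1 and Aqp11 was not tested. The 3 markers of injured tubule (Havcr1, Lcn2 and Krt20, none at 0) all rose in both pools after ischemia, from sums of 4.15 to 14.5 CPM to 18.5 to 469 CPM in male Atp6b1v1 and from 10.4 to 17.2 CPM to 74.7 to 414 CPM in male Hoxb7 pulldowns.

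After volume depletion 2 members rose and 1 fell in the Atp6b1v1 pool, where 14.6% of all tested genes passed, 8.11% rising and 6.47% falling. Aqp6 was at 34, 20.4, 46.7 and 36.1 CPM in controls and at 15.9, 10.9, 13.6 and 14.6 CPM in depleted libraries, with no overlap and a fall of 2.47-fold (log2 fold change -1.31, standard error 0.28, adjusted p = 0.00315). The log2 fold change was -1.03 within series A (adjusted p = 0.0798) and -1.54 within series B (adjusted p = 2.75e-05), and females alone gave -1.13 (adjusted p = 0.134). The intercalated cell markers, 3 of 6 of which were lower, summed to 476 to 630 CPM against 727 to 980 CPM in controls. The share of this in the fall of Aqp6 was not tested.

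Aqp2 rose slightly in the depleted Atp6b1v1 libraries, from 240, 287, 200 and 236 CPM to 296, 300, 331 and 354 CPM. The groups did not overlap, but the gap was narrow. Its log2 fold change of 0.43 (standard error 0.13, adjusted p = 0.0299) was lost without Control 6 (adjusted p = 0.075), Control 10 (adjusted p = 0.111), vAKI 6 (adjusted p = 0.0778) or vAKI 7 (adjusted p = 0.117), and was 0.18 within series A (adjusted p = 0.587) and 0.18 in females. The principal cell markers went the other way in these libraries, with 2 of 4 lower and sums of 215 to 261 CPM against 361 to 393 CPM in controls, without overlap. Aqp4 (0.60, adjusted p = 0.112) passed only without vAKI 1 (0.78, adjusted p = 0.0272) and within series B (0.78, adjusted p = 0.00137).

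In the depleted male libraries of the Atp6b1v1 pool the receptor lay apart between the series. Avpr2 was at 15.7, 19.1, 5.37 and 7.06 CPM in the male libraries vAKI 1, 2, 6 and 7, so the pair of series B was below all 4 controls and the pair of series A was not. The log2 fold change was -0.32 over the 4 (standard error 0.29, adjusted p = 0.505), 0.10 within series A (adjusted p = 0.85) and -1.16 within series B (adjusted p = 0.00147). Female controls were at 20.1, 22.8, 19.8 and 17.8 CPM and female depleted libraries at 3.91, 5.27 and 6.76 CPM, without overlap, although 2 of these 3 libraries were of series A. Females alone gave -1.92 (adjusted p = 0.0247), and both sexes together gave -0.91 (adjusted p = 0.103). The difference in response between the sexes did not pass its own test (female minus male -1.58, adjusted p = 0.55). Arhgap4 fell in the males (-0.71, standard error 0.20, adjusted p = 0.0213).

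**Figure D4:**
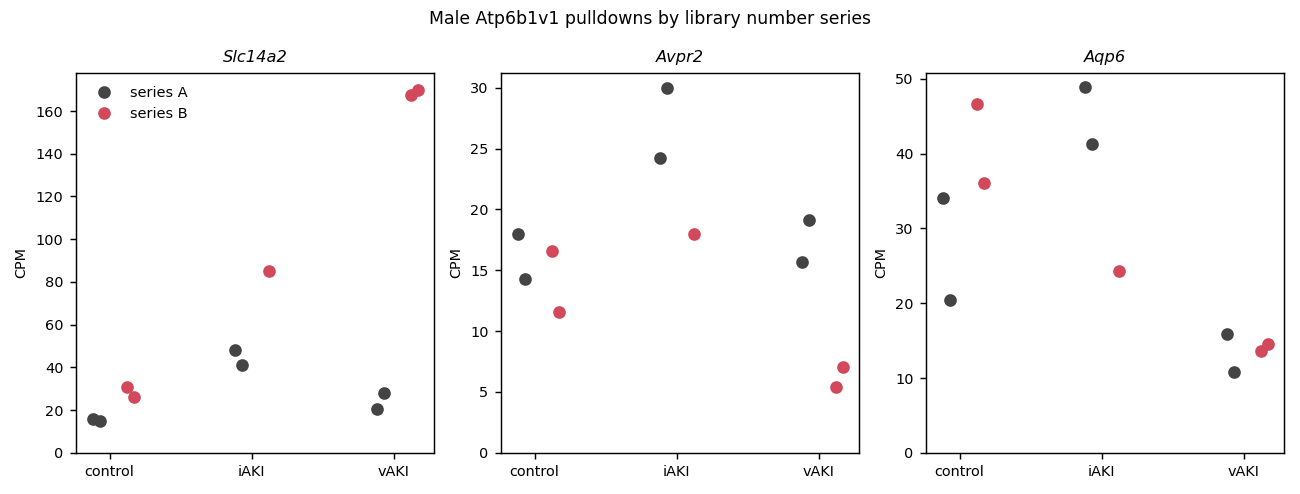
CPM of Slc14a2, Avpr2 and Aqp6 in the male Atp6b1v1 pulldowns, 1 point per library, with library series A and B side by side within control, iAKI and vAKI. The depleted libraries of series B stand at 168 and 170 CPM for Slc14a2 and at 5.37 and 7.06 CPM for Avpr2, and those of series A at 20.3 and 27.9 CPM and at 15.7 and 19.1 CPM, while Aqp6 is low in all 4.

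Between the injuries in the Atp6b1v1 pool, 2 members were higher and 2 lower after volume depletion than after ischemia, where 29.3% of all tested genes passed, 15% being higher and 14.3% lower. Aqp6 was lower (log2 fold change -1.45, standard error 0.29, adjusted p = 0.000755), and so was Avpr2 (-0.98, standard error 0.31, adjusted p = 0.0209). Aqp1 (0.52, adjusted p = 0.0311) and Aqp2 (0.42, adjusted p = 0.0293) were higher. Leaving out 1 library removed the call for Avpr2 (iAKI 1 or 4, vAKI 6 or 7), Aqp1 (iAKI 1 or 5, vAKI 1) and Aqp2 (iAKI 1, 4 or 5, vAKI 6 or 7), with adjusted p from 0.0501 to 0.169, whereas Aqp6 kept its call.

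Whether the drivers' pools responded differently was tested in males as the log2 fold change in Atp6b1v1 minus that in Hoxb7. After ischemia 5 members differed, all with a higher value in Atp6b1v1, where 7.79% of all tested genes passed, 3.67% being higher and 4.11% lower. The differences were 1.99 for Avpr2 (standard error 0.42, adjusted p = 0.008), 1.90 for Aqp3 (standard error 0.28, adjusted p = 0.00142), 1.70 for Aqp2 (standard error 0.19, adjusted p = 0.000134), 1.40 for Aqp6 (standard error 0.40, adjusted p = 0.0329) and 1.18 for Aqp4 (standard error 0.37, adjusted p = 0.0499). These members fell in the Hoxb7 pool and had log2 fold changes between 0.01 and 0.66 in the Atp6b1v1 pool, none of which passed. In females alone none of the 5 passed, and the difference had the opposite sign for Avpr2 (-0.83), Aqp3 (-0.47), Aqp6 (-0.31) and Aqp4 (-0.05). In both sexes together Aqp2 alone passed (1.33, adjusted p = 0.0261), and without the 6 female Hoxb7 libraries Aqp2, Aqp3 and Slc14a2 passed. All 5 adipocyte markers also differed between the responses (median 2.11, higher in Atp6b1v1), and their part in the members' differences was not tested. The call for Aqp4 was lost without any of 10 libraries (Atp6b1v1 Control 6, 9 or 11 or iAKI 1 or 4, Hoxb7 Control 3 or 4 or iAKI 4, 5 or 7, adjusted p from 0.0594 to 0.124), and that for Aqp6 without any of 8 (Atp6b1v1 Control 9 or 11 or iAKI 1 or 4, Hoxb7 Control 3 or iAKI 5, 6 or 7, adjusted p from 0.0504 to 0.111). The difference for Slc14a2 was 1.99 with a larger error (standard error 0.69, adjusted p = 0.0776), and passed with the series as a covariate (1.804, adjusted p = 0.0331).

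After volume depletion 3 members differed between the pools, again all higher in Atp6b1v1, where 4.2% of all tested genes passed, 2.04% being higher and 2.16% lower. The differences were 2.65 for Avpr2 (standard error 0.44, adjusted p = 0.00171), 2.56 for Aqp4 (standard error 0.38, adjusted p = 0.000785) and 1.89 for Aqp2 (standard error 0.20, adjusted p = 3.18e-05). For Avpr2 this difference includes the male Atp6b1v1 libraries of series A described above, and in females alone its sign was the opposite (-2.14). Aqp6 fell in both pools, and the difference between the 2 falls did not pass. That for Slc14a2 was 1.61 (adjusted p = 0.21).

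Female Hoxb7 pulldowns did not show the male pattern. Avpr2 was at 78.4, 13.5, 16.5 and 33.6 CPM in the female controls 1, 6, 9 and 10, at 49.9, 71.8 and 106.4 CPM in iAKI 1, 2 and 3, and at 60.7, 38.9, 57.5 and 8.39 CPM in vAKI 1, 2, 3 and 5. The controls at 13.5, 16.5 and 33.6 CPM and the depleted libraries at 60.7, 38.9 and 57.5 CPM are the 6 whose profile lay away from that of their labelled group. Control 1 and vAKI 5, whose profile lay near that of the males with the same label, were at 78.4 and 8.39 CPM. Aqp2 was at 1445, 699, 749 and 1115 CPM in the controls and at 1155, 1070, 1221 and 590 CPM in the depleted libraries, with vAKI 5 the lowest and Control 1 the highest. All ischemic and depleted female Hoxb7 libraries and Control 1 were of series A, whereas Control 6 was of series B and Control 9 and 10 of series C, so that for these controls the series and the shift cannot be told apart.

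In females alone no member passed the test after either injury in the Hoxb7 pool. The log2 fold changes after ischemia were 0.07 for Aqp2, 0.86 for Aqp3, 0.68 for Aqp4, 1.03 for Aqp6 and 1.11 for Avpr2, and those after volume depletion were 0.01 for Aqp2, 0.56 for Aqp3 and 0.22 for Avpr2. Tested against the males, 6 members responded differently to ischemia, all with a higher value in females, where 10.5% of all tested genes passed, 4.03% being higher and 6.51% lower. They were Aqp3 (difference 2.70, standard error 0.45, adjusted p = 0.00194), Avpr2 (2.43, standard error 0.62, adjusted p = 0.0134), Aqp6 (2.28, standard error 0.60, adjusted p = 0.0155), Aqp2 (1.75, standard error 0.36, adjusted p = 0.00538), Aqp4 (1.62, standard error 0.53, adjusted p = 0.0425) and Aqp11 (1.39, standard error 0.44, adjusted p = 0.0364). After volume depletion 4 members differed, where 16% of all tested genes passed, 8.51% being higher and 7.48% lower: Avpr2 (3.18, standard error 0.64, adjusted p = 0.00259), Aqp4 (1.74, standard error 0.54, adjusted p = 0.0257), Aqp2 (1.47, standard error 0.36, adjusted p = 0.00784) and Aqp3 (1.40, standard error 0.46, adjusted p = 0.0331).

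Without the 6 female Hoxb7 libraries, 1 female control and 1 female depleted library were left, too few to test a sex difference. Avpr2 then differed between the sexes by 1.30 after ischemia and by -0.25 after volume depletion, and Aqp3 by 1.98 after ischemia. The 6 were set apart by a profile taken from the males, so nearness of the rest to the males was partly built in. A fit of both sexes without the 6 libraries gave a log2 fold change of Avpr2 after volume depletion of -3.03 (adjusted p = 1.77e-07). Most Hoxb7 libraries behind this value were male, so it is no separate check of the male value. The ischemic fall of Avpr2 did not pass in that fit (-0.78, adjusted p = 0.183), while those of Aqp2 (-1.32) and Aqp3 (-1.18) did.

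**Figure D5:**
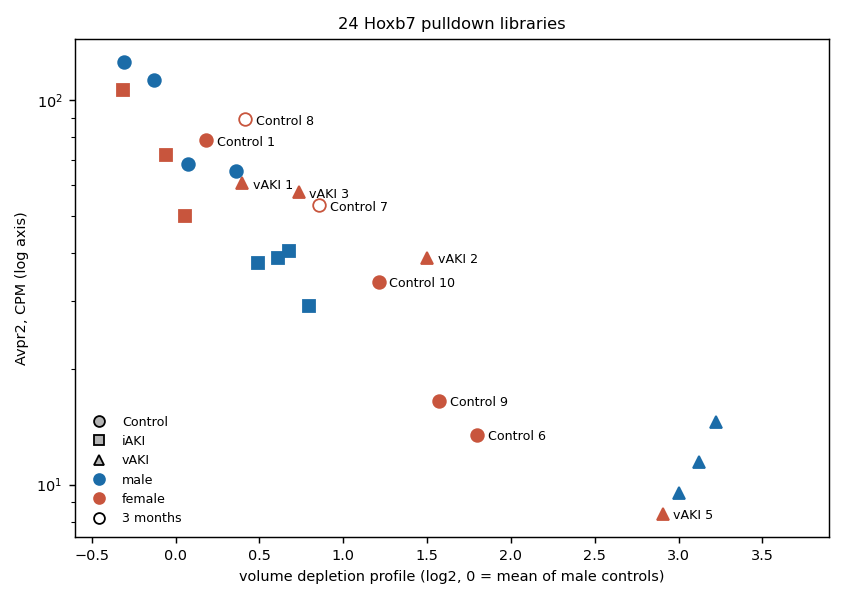
CPM of Avpr2 on a log axis against the volume depletion profile (mean log2 difference from the male controls, 0 for their mean) in the 24 Hoxb7 pulldowns, marked by labelled group and sex. The 3 male vAKI libraries and the female library vAKI 5 lie at the right with 8.39 to 14.5 CPM, and the female libraries labelled Control 6, 9 and 10 lie between them and the other controls with 13.5 to 33.6 CPM.

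In the Atp6b1v1 pool no gene of any kind passed the test of a sex difference in response (edgeR, 0 of 21175 genes after each injury, with 676 and 1756 genes at an unadjusted p under 0.05, and 1 and 45 genes called by DESeq2). At rest, in Control Total of 5.5 months, 4 members were higher in females and none lower, where 25.4% of all tested genes passed, 12.8% being higher and 12.7% lower. They were Slc14a2 (female minus male log2 fold change 0.70, standard error 0.14, adjusted p = 0.00123), Aqp6 (0.58, standard error 0.08, adjusted p = 2.25e-05), Aqp4 (0.56, standard error 0.18, adjusted p = 0.0294) and Aqp2 (0.37, standard error 0.11, adjusted p = 0.0144), with 8 libraries of each sex. With the series as a covariate Aqp4 did not pass (0.26, adjusted p = 0.293). Markers of the collecting duct moved in the same direction, with 2 of 4 principal cell and 5 of 6 intercalated cell markers higher in females. So did both markers of the thick ascending limb (median 0.50), while 2 of 6 proximal tubule markers were lower, so the shift was not limited to the collecting duct, and the part of these markers in the members' differences was not tested.

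Around the members, 40 genes of vasopressin signaling, of Aqp2 transcription and of Aqp2 trafficking were read from 1 fixed list. After ischemia in male Hoxb7 pulldowns 6 of the 40 fell and none rose, with a list median of -0.06 on the log2 scale, against 0.00 over all tested genes, of which 2.79% fell and 3.34% rose. They were Prkar2b, a regulatory subunit of protein kinase A (-1.67, standard error 0.25, adjusted p = 0.000692), the transcription factors Gata3 (-0.86), Elf5 (-0.82), Gata2 (-0.81) and Crem (-0.76), and the cyclic AMP phosphodiesterase Pde4a (-0.76). After volume depletion 9 rose and 13 fell, with a median of -0.17, where 17.9% of all tested genes rose and 17.6% fell, so that the risers were near that background. Among those that fell were Elf5, an ETS factor of principal cells (-1.74, standard error 0.22, adjusted p = 2.81e-06), Ptger3, a prostaglandin receptor that restrains cyclic AMP (-1.58, standard error 0.21, adjusted p = 5.89e-06), Prkar2b (-1.58), Gata3 (-1.36) and Adcy6, the main adenylyl cyclase of the principal cell (-1.30, standard error 0.17, adjusted p = 4.31e-06). The risers included Akap12, an anchor of protein kinase A (2.34, standard error 0.44, adjusted p = 0.000238), Ptger4, a prostaglandin receptor that raises cyclic AMP (1.69, standard error 0.30, adjusted p = 0.00015), and the phosphodiesterases Pde4d (1.34) and Pde4b (1.09). The list thus held genes on both sides, including kinase anchors and phosphodiesterases that rose while the receptor, the cyclase and the channels fell.

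In the Atp6b1v1 pool 2 of the 40 genes rose and 1 fell after ischemia, no larger a share than the 8.51% of all tested genes that passed. The risers were Elf5 (0.75) and Arrb2 (0.72), the gene of a receptor-binding arrestin. After volume depletion 7 rose and 5 fell, where 8.11% of all tested genes rose and 6.47% fell. Akap12 (1.48), Ptger4 (1.08) and Pde4b (1.07) were among those that rose, and Ptger3 (-1.30), Prkar2b (-1.12) and Adcy6 (-0.50) among those that fell, as in the Hoxb7 pool. Elf5 rose there (0.70) and fell in the Hoxb7 pool (-1.74). At rest, the Atp6b1v1 pool held 8 of the 40 lower than the Hoxb7 pool, led by Elf5 (-1.93) and Elf3 (-1.12), and 2 higher, where 4.2% of all tested genes were lower and 5.73% higher.

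Of the 6 remaining genes of the families (Aqp5, Aqp8, Aqp9, Aqp12, Mip and Slc14a1), most had few reads. Aqp5, a water channel best known from glands and lung that lies between Aqp2 and Aqp6, was at 1.18, 1.36, 2.27 and 0.80 CPM in male Hoxb7 controls and at 24.5, 4.88 and 15.9 CPM after volume depletion. Each depleted library was above every control, so Aqp5 rose where its neighbors Aqp2 and Aqp6 fell (log2 fold change 3.43, standard error 0.48, adjusted p = 1.11e-05). In male Atp6b1v1 pulldowns it was at 2.36, 4.24, 5.50 and 3.65 CPM after volume depletion against 0.25 to 1.51 CPM in controls (2.22, standard error 0.48, adjusted p = 0.00353). After ischemia it did not pass in either pool. At rest Aqp5 was higher in the Hoxb7 pool than in Control Total (1.65, adjusted p = 2.73e-05) and than in the Atp6b1v1 pool, and higher in females than in males in Control Total (1.66, adjusted p = 0.00287). In female Hoxb7 pulldowns Aqp5 was at 0.45, 6.80, 6.67 and 5.32 CPM in Control 1, 6, 9 and 10 and at 0.96, 1.84, 0.88 and 21.3 CPM in vAKI 1, 2, 3 and 5, which set the same 6 libraries apart. Aqp8, a channel of water and ammonia, rose after ischemia in male Atp6b1v1 pulldowns, from 0 to 6 reads in a control library to 17 to 36 reads (3.26, standard error 0.62, adjusted p = 0.00296). After volume depletion in male Hoxb7 pulldowns Aqp8, at 0 or 1 read against 3 to 8 in the controls (adjusted p = 0.0158), and Aqp9, an aquaglyceroporin, at 0 reads against 1 to 6 (adjusted p = 0.0191), were called lower on these few reads, and no fold is given. At rest Aqp8 was lower in both pulldowns than in Control Total, at 0 to 23 reads per Total library. Slc14a1, the UT-B urea transporter of vasa recta and red cells, lay between 4.61 and 23.1 CPM over all control libraries, passed in none of the injury comparisons and was higher in females than in males in Control Total (1.12, standard error 0.20, adjusted p = 0.000237).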

How the data were processed

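The authors deposited raw read counts per gene symbol, not normalized, for 69 libraries. The authors prepared poly(A) libraries, trimmed reads (CASAVA 1.8.2, Trimmomatic 0.36), aligned them to mm10 with STAR 2.5.3a and counted them with HTSeq 0.6.1p2, both at default settings. The annotation is not given in the sources used here. HTSeq then drops reads that align to several places. Tagging may over-represent uracil-rich RNA.

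Counts were tested in R 4.3.3 with edgeR 4.0.16 (TMM scaling, quasi-likelihood test, Benjamini-Hochberg adjustment) over 21175 genes with at least 2 counts over all libraries, and a gene was called at an adjusted p under 0.05. Injury was fitted in 22 male pulldowns (16 residual degrees of freedom, common dispersion 0.0444), control pools in 42 control libraries with sex as a covariate (0.0473), sex differences in 43 pulldowns of 5.5 months, and sex at rest in 16 Control Total libraries. A mouse may have given both a control pulldown and a Control Total library, which the fit treated as unrelated. Log2 CPM used a prior count of 2.

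Alternatives were DESeq2 1.42.0, its size factors, other filters, a log2 fold change of at least 1, both sexes, females only, the groups compared only, the replicate number as a block, library series, and each library left out. The members and the gene lists were chosen with earlier results of these data known. All 9 members are described, and other genes are named from the fixed lists when they passed. Nearest genes were the 3 with the smallest root mean square difference in centred log2 CPM. Some comparisons of the injury fit and of the control pool fit were tested on simulated data. The fits of sex differences and of sex at rest were not tested in this way.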

Additional observations from a re-analysis of the deposited data

Results flagged for a closer look

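Each of the 9 members was tested for 1 value far from the rest in 9 sets of 4 or more libraries of 1 group, sex and age. Of the 81 tests 4 found one, in 3 of the sets, where chance marks about 1 in 20. Slc14a2 was at 92.4 CPM in the male Hoxb7 library Control 3, against 47.8 to 50.8 CPM in the other 3 controls. Aqp11 was at 5.12 CPM in the male Hoxb7 library iAKI 5, against 10.1 to 10.5 CPM. In the female Hoxb7 library vAKI 1, Aqp3 was at 299 CPM, against 240 to 241 CPM, and Aqp6 was at 10.4 CPM, against 14.8 to 15.9 CPM.

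Differences in response between the drivers' pools were tested directly in males and passed for 8 values, each higher in Atp6b1v1 than in Hoxb7. After ischemia they were 1.99 for Avpr2, 1.90 for Aqp3, 1.70 for Aqp2, 1.40 for Aqp6 and 1.18 for Aqp4 (log2 differences). After volume depletion they were 2.65 for Avpr2, 2.56 for Aqp4 and 1.89 for Aqp2. The Hoxb7 iAKI and vAKI libraries are all of library series A, whereas the Atp6b1v1 libraries are of series A and B, and within series A the difference for Avpr2 was 2.44 after ischemia and 3.42 after volume depletion.

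Differences in response between the sexes in the Hoxb7 pool, tested in the same way, passed for 10 values, each higher in females than in males. After ischemia they were 2.70 for Aqp3, 2.43 for Avpr2, 2.28 for Aqp6, 1.75 for Aqp2, 1.62 for Aqp4 and 1.39 for Aqp11. After volume depletion they were 3.18 for Avpr2, 1.74 for Aqp4, 1.47 for Aqp2 and 1.40 for Aqp3. Without the 6 female Hoxb7 libraries whose profile lay away from their labelled group, 1 female control and 1 female depleted library were left, too few to test the 10. After ischemia, leaving out the single female library iAKI 3 left only Aqp3 past the threshold (adjusted p of 0.0512 for Aqp2, 0.0788 for Avpr2, 0.0995 for Aqp6, 0.134 for Aqp11 and 0.171 for Aqp4), and leaving out the male Control 3 left 3 of the 6. Other libraries whose loss removed a call were, for Aqp4, Control 6, 9 or 10 or iAKI 2, 4, 5 or 7, and, for Aqp11, Control 5, 6, 9 or 10 or iAKI 1 or 5. After volume depletion the call for Aqp3 was lost without Control 3, 6 or 9 or vAKI 1, 3, 4, 6 or 7, and that for Aqp4 without Control 3 or 6 or vAKI 1, 3, 6 or 7.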

How the results depend on the processing

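The falls of Aqp2, Aqp3, Aqp4, Aqp6 and Avpr2 after volume depletion in male Hoxb7 pulldowns kept their direction and call under each fit of males, except that Aqp3 (-0.84) lost its call where a log2 fold change of at least 1 was asked. In both sexes together Aqp3 and Avpr2 did not pass, and in females alone none of the 5 did. The cause was not tested beyond the values given here. Precision is limited by 3 or 4 libraries per group and by library series, which overlaps in part with group. Aqp12, with at most 1 read in a male pulldown of 5.5 months, could not be compared at this depth.

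Over all tested genes, calls with the lowest and highest count among alternatives were 1298 (515 to 3078) for ischemia and 7521 (23 to 8904) for volume depletion in Hoxb7, 1803 (0 to 4958) and 3086 (1311 to 7295) in Atp6b1v1, 7049 (800 to 8728) and 6194 (3596 to 9892) between the injuries in Hoxb7 and Atp6b1v1, 1649 (0 to 3231) and 890 (0 to 3103) between drivers after ischemia and volume depletion, 2231 (0 to 3272) and 3387 (1 to 4247) between the sexes in Hoxb7, and 2103 (748 to 2696) between the control pools.

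The number of members past the threshold changed as follows. A log2 fold change of at least 1 left 4 of 6 after either injury in Hoxb7, 3 of 6 between Atp6b1v1 pulldown and Total, 0 of 4 between the sexes in Total and 1 of 4 between the injuries in Atp6b1v1. Between the control pools it was 5, and 2 in females only. Those 2 were Aqp2, which was among the 5, and Aqp6, which was not and was higher in Atp6b1v1. For ischemia in Hoxb7 it was 6 in males, 1 in both sexes, 2 in both sexes without the 6 female libraries, and 0 in females. For volume depletion in Hoxb7 it was 6 in males, 3 in both sexes and 0 in females. For ischemia in Atp6b1v1 it was 0 in males, 1 with both sexes, both sexes without the 6 libraries, females only, the series covariate, or the compared groups only, 2 within series A and 4 within series B. For volume depletion in Atp6b1v1 it was 3, with 1 for the compared groups only, 0 within series A and 6 within series B. Between the injuries it was 3 in Hoxb7, with 1 in both sexes, 0 in females and 5 within series A, and 4 in Atp6b1v1, with 2 in both sexes with or without the 6 libraries and in females, 1 for the compared groups only and 7 within series B. The difference between drivers after ischemia was 5, with 1 in both sexes, 3 without the 6 libraries and 0 in females, and after volume depletion 3, with 0 in both sexes and in females. The sex differences in Hoxb7, 6 and 4, are not counted without the 6 libraries, where 1 female control and 1 female depleted library were left. Leaving out 1 library gave 4 to 5 for ischemia and 5 to 6 for volume depletion in Hoxb7, 0 to 0 and 2 to 4 in Atp6b1v1, 3 to 4 and 1 to 4 between the injuries in Hoxb7 and Atp6b1v1, 3 to 5 and 3 to 3 between drivers after ischemia and volume depletion, and 1 to 6 and 2 to 6 between the sexes in Hoxb7 (0 to 0 in Atp6b1v1).

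These log2 values changed sign. In females alone, Hoxb7 ischemia gave 0.51 for Aqp1, 0.070 for Aqp2, 0.86 for Aqp3, 0.68 for Aqp4, 1.03 for Aqp6, 0.21 for Aqp7, 0.53 for Aqp11, 1.11 for Avpr2 and 0.92 for Slc14a2, and Hoxb7 volume depletion 0.0085 for Aqp2, 0.56 for Aqp3, 0.023 for Aqp7, 0.29 for Aqp11 and 0.22 for Avpr2. Females also gave -0.23 for Aqp4 after volume depletion in Atp6b1v1, -0.30 for Aqp3 between the injuries in Hoxb7, driver differences of -0.47 for Aqp3, -0.054 for Aqp4, -0.31 for Aqp6 and -0.83 for Avpr2 after ischemia, and of -0.020 for Aqp4 and -2.14 for Avpr2 after volume depletion. Aqp1 after ischemia in Hoxb7 was 0.24 in both sexes without the 6 libraries, 0.20 in both sexes, 0.10 within series A and -0.15 to 0.075 with 1 library left out (0.05 without Control 5, 0.075 without iAKI 5). Aqp2 between the injuries in Atp6b1v1 was -0.047 in both sexes without the 6 libraries, -0.069 in both sexes and -0.53 in females. Males alone gave -0.061 for Aqp3 and 0.15 for Aqp4 between Atp6b1v1 pulldown and Total. Slc14a2 between Hoxb7 pulldown and Total was 0.54 in males, 0.16 without the 3 female controls and 0.019 at 5.5 months. Slc14a2 after ischemia in Hoxb7 was 0.13 in both sexes. Avpr2 was -0.25 for the sex difference after volume depletion in Hoxb7 without the 6 libraries and 0.10 after volume depletion in Atp6b1v1 within series A.

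Libraries with the same replicate number did not consistently deviate together (correlations from -0.42 to 0.31 in males and from -0.45 to 0.59 in controls). The check matched equal replicate numbers only. It cannot tell whether a control pulldown and a Control Total library came from the same mouse under different numbers, and p-values of pulldown against Total ignore such pairs. With the replicate number as a block, 0 members differed between drivers after ischemia and 0 and 0 between the sexes in Hoxb7, 2 differed between the injuries in Atp6b1v1, Avpr2 after ischemia in Hoxb7 was -0.78 (adjusted p = 0.116) and Slc14a2 between Hoxb7 pulldown and Total was 0.15.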

Other observations

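The likeness of 2 genes was measured as the root mean square of the difference between their log2 CPM, each centred on its own mean over the 69 libraries, with 12723 genes searched. The points share library, depth and capture, and much of the spread is the difference between whole kidney RNA and pulldown, so the values are a description. Aqp1 and Aqp11, both of the proximal tubule, differed by 0.465 from each other, and their nearest genes were Ldhb (0.257) and Crat (0.296). Aqp2 was closer to Aqp3 (0.603) than to Aqp4 (0.693), and its nearest gene was Fam174b (0.543), with Krt19, a keratin of duct epithelium, the third nearest (0.570). The distances did not sort the members by nephron segment, since Aqp6 of intercalated cells lay 0.701 from Aqp7 and 0.712 from Aqp11, about as near as Aqp2 lay to Aqp4, whereas Slc14a2 lay 0.996 from Aqp2 and 1.30 from Avpr2.

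Aqp3 was nearest to Endod1 (0.417) and Aqp4 to Ptgs1 (0.442), the gene of the cyclooxygenase COX-1. Aqp6 was nearest to Rhbg (0.431), an ammonia transporter of intercalated cells, and to Atp6v1b1 (0.508), the proton pump subunit whose promoter drives the second Cre. Avpr2 was nearest to Gprc5b (0.504) and Mcoln3 (0.585), Aqp7 to Mira (0.361) and Slc14a2 to Gnb5 (0.532). The spread of each member itself, as the standard deviation of its log2 CPM over the 69 libraries, ran from 0.609 for Aqp7 to 1.11 for Aqp1, so the nearest genes of Slc14a2, with a spread of 0.716, followed it less closely than those of Aqp1 followed Aqp1.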
